A study of Mus musculus with 18 samples.

Results

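Transcript levels of cyclin Y and of its kinase partners were followed in hippocampal tissue from WT mice and mice labelled as Ccny knockouts (KO), without and with spatial training. The set held 8 of the 15329 genes with values: Ccny, its paralog Ccnyl1, the kinase genes Cdk14, Cdk16, Cdk17, Cdk18 and Cdk5, and Cdk5r1, which encodes the activator p35. The 7 genes other than Ccny are called partners below as a label only, which states no binding to cyclin Y. All 8 genes were listed by name, with earlier results of these data known. All 8 had reads in each of the 18 libraries, between 298 reads for Ccnyl1 and 13289 reads for Cdk14, so none was lost to a filter on low values.

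Hippocampal RNA was taken from 6 groups of 3 mice, 1 library per mouse. WT_Basal and KO_Basal mice were not trained. WT_OL and KO_OL mice had completed original learning in the Morris water maze, in which a mouse learns the place of a hidden platform. WT_RL and KO_RL mice had then also completed reversal learning, in which the platform is moved to the opposite quadrant. The mice were of the C57BL/6J strain and 8 to 10 weeks old, and the WT mice were littermates of the KO mice. The KO is named in the labels only as a Ccny knockout, and the allele, the exons it removes and the cells it covers are not given in the sources used here. The comparisons ask whether loss of Ccny goes with a change in the mRNA of the paralog or of the kinases, and whether the 8 genes change with learning.

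Cyclin Y is unlike the cyclins that drive the cell cycle. A lipid anchor at its N-terminus holds it at membranes, where it binds and activates CDK14 (PFTAIRE kinase) and CDK16 (PCTAIRE kinase), and 14-3-3 proteins take part in this binding. The cyclin Y and CDK14 complex phosphorylates the Wnt co-receptor LRP6. In neurons cyclin Y is found at the postsynaptic side of excitatory synapses. CDK5 is the main CDK of postmitotic neurons and works with p35 rather than with a cyclin, phosphorylating cytoskeletal and synaptic proteins.

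The libraries held 29248557 to 37915576 reads over all genes with values, and 1 read was worth 0.0274 to 0.0333 CPM, the read count scaled to library size. The values are log2(TMM-normalized CPM + 1), and CPM below is computed back from them. WT_OL replicate 2 lay farthest from its group mates, with a median absolute log2 difference of 0.231 over all genes, against 0.072 to 0.207 in the other 17 libraries. Neuron, CA1 and dentate granule markers were present in every library, as the labelled tissue requires. The summed choroid plexus markers ran from 48 to 8503 CPM between libraries, hypothalamic markers reached 101.3 CPM in 1 KO_Basal library, and pituitary markers reached 43 CPM in 1 WT_Basal library. Fewer cells of a type and less RNA per cell cannot be told apart in such tissue samples.

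Ccny lies on chromosome 18 (GRCm38, chr18:9312304-9450154, minus strand). Its level was 158, 149.6 and 158 CPM in the WT_Basal mice and 95.8, 90.5 and 89.6 CPM in the KO_Basal mice. After original learning it was 114, 119 and 150.3 CPM in WT_OL and 75.0, 74.0 and 76.0 CPM in KO_OL. After reversal learning it was 148, 128 and 107 CPM in WT_RL and 76.2, 84.3 and 78.6 CPM in KO_RL. Every KO mouse was below every WT mouse, in each state and across states, and the WT mice varied more after training than before it. Across the 9 mice of a genotype the mean was 137 ± 20.04 CPM in WT and 82.2 ± 8.06 CPM in KO (SD, n = 9 each).

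The targeted transcript was therefore reduced and not absent. On the log2 scale Ccny was lower in KO by -0.75 in Basal (SE 0.11, adjusted p = 0.0121, limma) and by -0.75 in OL (SE 0.11, adjusted p = 0.018). In RL the difference was -0.66 (SE 0.11), which did not pass the adjustment over all genes (adjusted p = 0.0821). Averaged over the 3 states it was -0.72 (95% interval -0.85 to -0.59, adjusted p = 3.31e-05), which is a change of -39.3% with an interval of -44.5% to -33.6%. Exact permutation of 3 mice against 3 gave p = 0.1 in each state, the smallest two-sided p that this design allows. Over all 9 against 9 mice the exact two-sided permutation p was 4.11e-05, again the smallest possible. Calls in single states were lost or gained when 1 mouse was left out, while the difference kept its sign. It ranged from -0.78 to -0.73 in Basal, -0.83 to -0.63 in OL and -0.78 to -0.55 in RL. In Basal the call was lost without KO_Basal replicate 2 or 3 or any WT_Basal mouse (adjusted p = 0.0603 to 0.12), and in OL without any KO_OL mouse or WT_OL replicate 2 (adjusted p = 0.0749 to 0.141). In RL it was gained without WT_OL replicate 3, WT_RL replicate 1 or WT_RL replicate 3 (adjusted p = 0.0113 to 0.0279). WT_OL replicate 3 is not in the RL comparison and adds only to the estimate of spread. The call averaged over the states held whichever mouse was left out, at -0.76 to -0.68. A single value per gene does not say which exons the reads in KO mice came from.

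Few other genes separated the genotypes in this way. An adjusted p under 0.05 was reached by 0.0196% of the 15329 genes in Basal, 0.0652% in OL, 0% in RL and 0.0326% in the mean of the 3 states. In RL, where limma called 0 genes, 756 genes had an unadjusted p under 0.05. By the criteria of the study, which ask for a fold above 1.5 and an unadjusted p under 0.05, Ccny passed in all 3 states. So did 0.783% of genes in Basal, 1.41% in OL and 0.652% in RL. The p here came from limma, so these shares are not the study's own, and its count in Basal was larger. Genes whose 9 KO libraries all lay below the 9 WT libraries made up 0.013% of the table, and these 2 genes were Ccny and Adh5. Genes with all KO libraries above made up 0.00652%, which is Znrf1 alone. Adh5 was named after its values were seen.

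**Figure D1:**
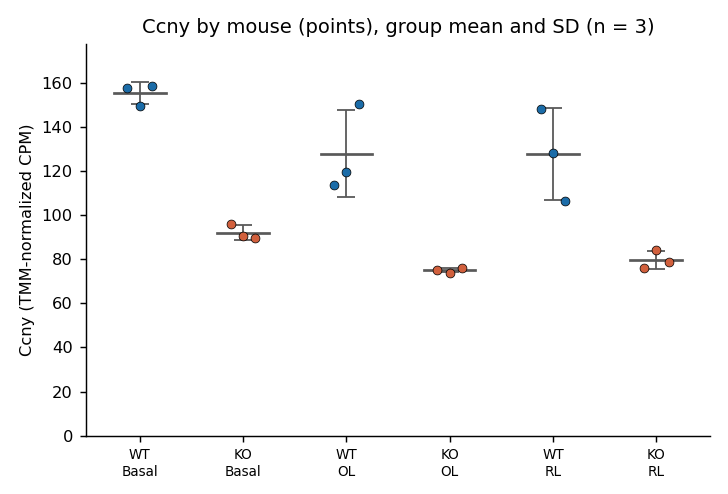
Ccny level in TMM-normalized CPM (vertical axis, from 0) for each mouse, by genotype and training state. Points are mice (WT blue, KO orange), the horizontal bar is the group mean and the error bar the SD over 3 mice. All KO mice lay between 74.0 and 95.8 CPM and all WT mice between 107 and 158 CPM.

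Ccnyl1, the closest relative of Ccny, encodes a second membrane-bound cyclin that can also activate CDK14 and CDK16. It lies at chr1:64690455-64725644 (plus strand). Its level was 12.8, 10.6 and 13.2 CPM in WT_Basal and 11.5, 11.3 and 11.1 CPM in KO_Basal. It was 11.1, 11.4 and 13.3 CPM in WT_OL and 9.14, 10.1 and 11.3 CPM in KO_OL. After reversal learning it was 8.67, 9.42 and 11.2 CPM in WT_RL and 9.95, 9.50 and 9.81 CPM in KO_RL. The genotypes overlapped in every state. The difference averaged over the states was -0.10 (95% interval -0.23 to 0.03, adjusted p = 0.68), and the upper end of the interval is a rise of 2.26% in KO mice.

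Cdk14 and Cdk16 encode the kinases for which cyclin Y is the known activator. Cdk14 (chr5:4803391-5420312, minus strand) stood at 283, 313 and 295 CPM in WT_Basal and at 295, 303 and 284 CPM in KO_Basal. It stood at 321, 257 and 324 CPM in WT_OL and at 352, 304 and 292 CPM in KO_OL. In the reversal groups it stood at 365, 327 and 318 CPM in WT and at 303, 353 and 301 CPM in KO. The genotypes overlapped in each state, and the mean difference was -0.01 (95% interval -0.13 to 0.12).

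Cdk16 (chrX:20687954-20699880, plus strand) was at 218, 246 and 221 CPM in WT_Basal and at 230.4, 256 and 235 CPM in KO_Basal. In OL it was at 235, 329.8 and 248 CPM in WT and at 242, 228 and 237 CPM in KO. In RL it was at 249, 270.1 and 217 CPM in WT and at 236, 240.0 and 259.7 CPM in KO. The highest of the 18 values was that of WT_OL replicate 2. The mean genotype difference was -0.03 (95% interval -0.17 to 0.10). In OL alone the difference was -0.18 (adjusted p = 0.37), and without that library it was -0.03.

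Cdk17 and Cdk18 encode the other PCTAIRE kinases, and Cdk17 is known as a kinase of neurons. Cdk17 (chr10:93160875-93267071, plus strand) was at 211, 217 and 214 CPM in WT_Basal and at 203, 191 and 216 CPM in KO_Basal. In OL it was at 161, 128 and 203 CPM in WT and at 198, 191 and 179.8 CPM in KO. In RL it was at 215, 167 and 166 CPM in WT and at 184, 195 and 196 CPM in KO. Trained WT mice had both the lowest and nearly the highest values, while the 9 KO mice stayed between 179.8 and 216 CPM. The genotype difference was 0.08 on average (95% interval -0.07 to 0.23) and 0.23 in OL (adjusted p = 0.332). The OL difference rested on single WT libraries: it was 0.07 without WT_OL replicate 2 and 0.40 without WT_OL replicate 3, where it passed the test (adjusted p = 0.025).

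Cdk18 (chr1:132112237-132139684, minus strand) was less abundant. Its level was 23.1, 20.3 and 23.3 CPM in WT_Basal and 31.3, 19.6 and 23.9 CPM in KO_Basal. It was 23.5, 23.9 and 28.0 CPM in WT_OL and 21.7, 28.0 and 27.9 CPM in KO_OL. In RL the WT mice had 23.0, 28.2 and 26.1 CPM and the KO mice 22.2, 22.7 and 21.8 CPM, without overlap. The RL difference was -0.20 (adjusted p = 0.986) and the mean difference -0.01 (95% interval -0.18 to 0.16). The highest value, in KO_Basal replicate 1, came from the library that held the hypothalamic markers. The part of that admixture in the value was not tested.

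Cdk5 and Cdk5r1 form the neuronal kinase and activator pair. Cdk5 (chr5:24418241-24423530, minus strand) was at 103, 112 and 104 CPM in WT_Basal and at 105, 112 and 98.0 CPM in KO_Basal. In OL it was at 111, 137 and 93.0 CPM in WT and at 97.9, 100.05 and 101.4 CPM in KO. In RL it was at 104, 109 and 94.4 CPM in WT and at 100.6, 96.5 and 96.5 CPM in KO. The genotypes overlapped throughout, with a mean difference of -0.08 (95% interval -0.21 to 0.04). In OL it was -0.17 (adjusted p = 0.375), with -0.03 without WT_OL replicate 2 and -0.31 without WT_OL replicate 3 (adjusted p = 0.0283 in the latter).

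Cdk5r1 (chr11:80477023-80481184, plus strand) was at 241, 243 and 234 CPM in WT_Basal and at 234, 227 and 227 CPM in KO_Basal. In OL it was at 225, 204 and 266 CPM in WT and at 276, 262 and 259.6 CPM in KO. In RL it was at 267, 236 and 218 CPM in WT and at 235, 263 and 266 CPM in KO. The KO_Basal mice were the lower group before training, narrowly, and the trained KO mice had the higher means. The mean genotype difference was 0.08 (95% interval -0.03 to 0.19). In OL it was 0.21 (unadjusted p = 0.0365, adjusted p = 0.25), with 0.12 without WT_OL replicate 2 and 0.31 without WT_OL replicate 3 (adjusted p = 0.0216 in the latter).

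Among the 7 partners, limma called 0 in Basal, 0 in OL, 0 in RL and 0 in the mean of the states. At an unadjusted p under 0.05 the counts were 0, 1, 0 and 0. The 95% intervals of the single-state differences reached from -0.49 to 0.50, those of Cdk18 in RL and Cdk17 in OL. A p that missed the threshold does not show equal levels.

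**Figure D2:**
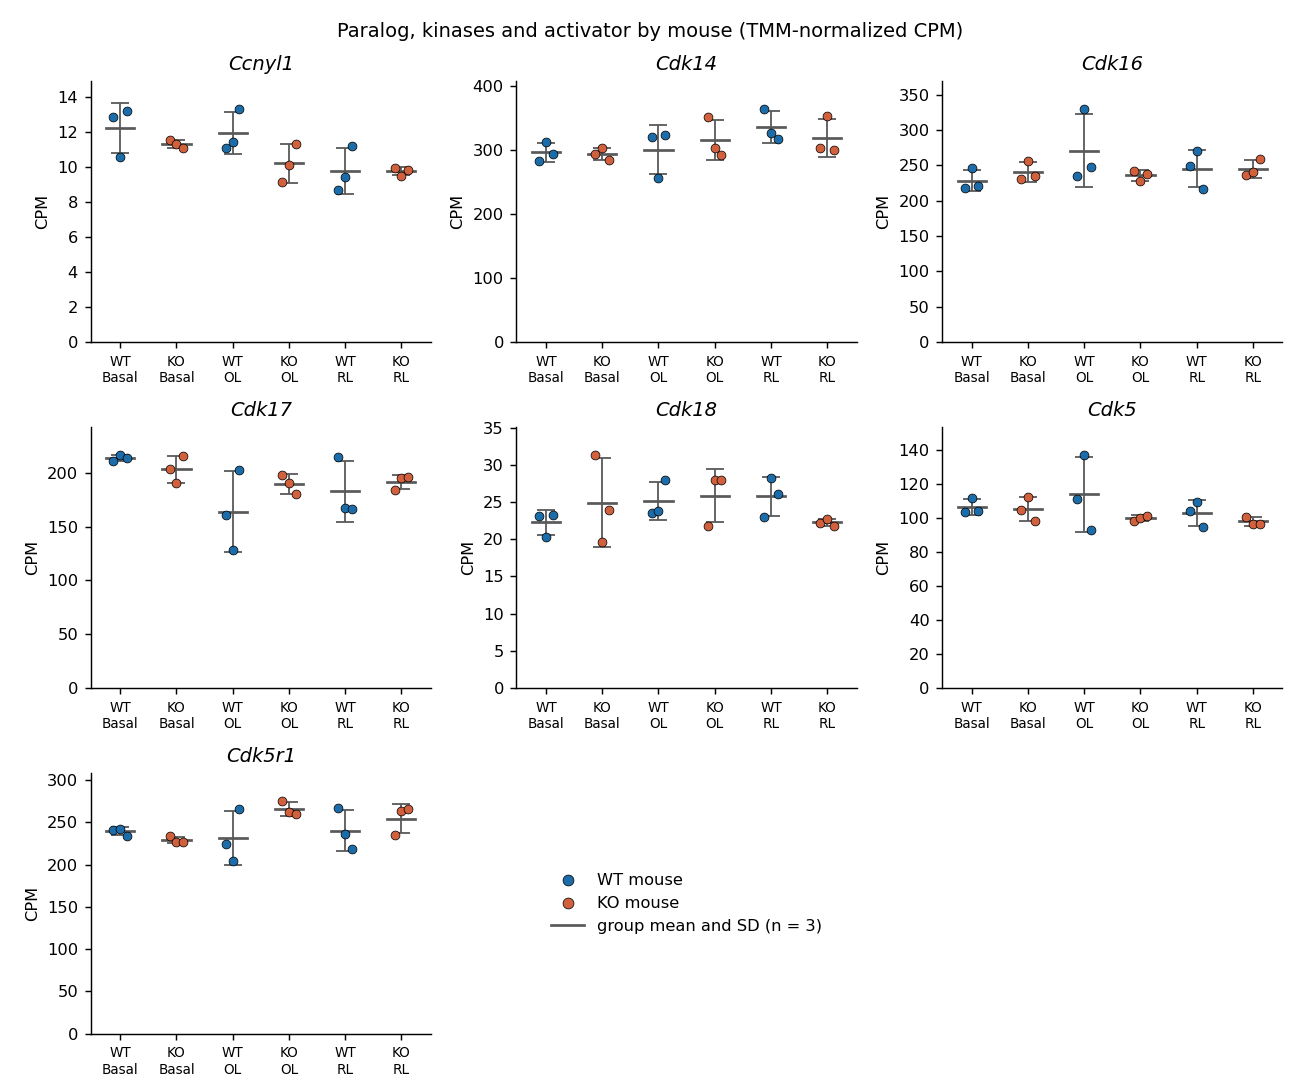
Levels of the 7 partner genes in TMM-normalized CPM (vertical axes, each from 0) for each mouse, by genotype and training state. Points are mice, bars the group mean and SD over 3 mice. The spread between WT_OL mice is the widest of the 6 groups for Cdk5, Cdk5r1, Cdk14, Cdk16 and Cdk17.

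**Figure D3:**
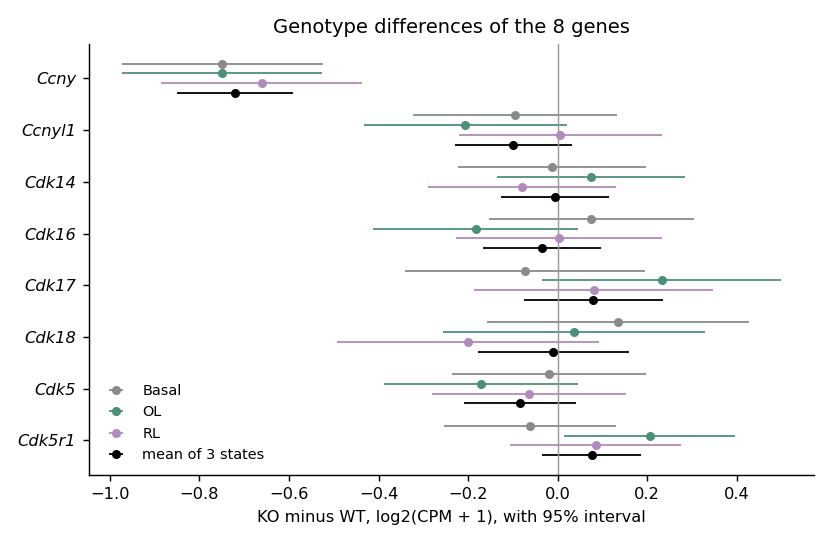
KO minus WT differences of log2(CPM + 1) (horizontal axis) for the 8 genes in each training state and averaged over the states, with 95% intervals from the fit over 18 libraries. The 4 intervals of Ccny lie left of 0. Of the 28 intervals of the partner genes, 1 excludes 0, that of Cdk5r1 in OL.

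Levels can be set beside each other only per length. Per kb of the longest annotated transcript, Cdk16 stood highest at 74.7 ± 7.82 CPM per kb (SD, n = 18 here and for the next values). Cdk14 followed at 60.4 ± 5.27, Cdk5r1 at 58.5 ± 4.87, Cdk17 at 52.8 ± 6.49 and Cdk5 at 50.6 ± 4.91 CPM per kb. Cdk16 lay above Cdk14 by more than either SD, while Cdk14 and Cdk5r1, Cdk5r1 and Cdk17, and Cdk17 and Cdk5 differed by less than the larger SD of each pair. Ccny was at 23.8 ± 3.48 CPM per kb in WT and 14.3 ± 1.40 in KO mice (n = 9 each). Cdk18 at 5.59 ± 0.73 and Ccnyl1 at 3.31 ± 0.41 CPM per kb were the lowest, apart from each other and from the rest. Per kb of all merged exons the order changed. Cdk5r1 at 58.5 then stood above Cdk16 at 55.8, Cdk5 at 48.1 above Cdk17 at 31.3, and Ccny in WT mice at 22.5 above Cdk14 at 16.5 CPM per kb. Cdk14 moved most, having 18877 bases of exons but a longest transcript of 5145 bases.

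In WT mice the Ccny level per kb was thus several times that of Ccnyl1, and it remained above it in KO mice. Exons of 3 of the genes overlap a gene on the other strand, by 205 bases with 2810408I11Rik for Ccnyl1, by 316 bases with Elk3 for Cdk17 and by 86 bases with Gm29629 for Cdk18. Whether the counting used strand is not given in the sources used here, so reads of these stretches cannot be assigned with certainty.

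Mean Ccny was lower in trained than in untrained mice of both genotypes, but none of the 4 tests within a genotype passed. OL minus Basal was -0.29 in WT mice (SE 0.11, adjusted p = 0.0953) and -0.29 in KO mice (SE 0.11, adjusted p = 0.0574). RL minus Basal was -0.29 in WT (adjusted p = 0.0713) and -0.21 in KO (adjusted p = 0.172). Leaving out each mouse in turn gave -0.41 to -0.21 for OL and -0.41 to -0.17 for RL in WT. In KO it gave -0.31 to -0.26 for OL and -0.25 to -0.17 for RL. WT OL was called without WT_OL replicate 3 (adjusted p = 0.0123) or WT_RL replicate 3 (adjusted p = 0.0495), and WT RL without WT_OL replicate 3 (adjusted p = 0.0294) or WT_RL replicate 1 (adjusted p = 0.0193). KO OL was called without WT_OL replicate 2 or 3 or WT_RL replicate 1 or 3 (adjusted p = 0.0228 to 0.0465), and KO RL in 0 of 18 such fits. WT_RL replicate 3 is outside WT OL minus Basal, and WT_OL replicate 3 outside WT RL minus Basal. All of these WT mice are outside KO OL minus Basal. A mouse outside a comparison adds only to the estimate of spread and leaves the difference unchanged. All trained KO mice were below all KO_Basal mice, at 74.0 to 84.3 against 89.6 to 95.8 CPM. In WT the groups overlapped after OL, where 1 mouse had 150.3 CPM and the lowest WT_Basal mouse 149.6, and did not overlap after RL.

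Among all 8 genes, limma called 0 within a genotype in any of the 6 comparisons of training states. This stood against 9.5% of all genes called for OL minus Basal in WT, 15.7% for RL minus Basal in WT and 0.261% for RL minus OL in WT. In KO mice the shares of all genes were 23.5% for OL minus Basal, 23.6% for RL minus Basal and 0.0196% for RL minus OL. Of the 7 partners, those with an unadjusted p under 0.05 numbered 2, 1 and 1 in WT and 1, 0 and 0 in KO, in the same order. Of all genes, 25.9%, 30.3% and 16.4% in WT and 36.6%, 36.6% and 4.81% in KO were at that level. The nearest to the threshold was Cdk17 after OL in WT, at -0.40 (SE 0.13, adjusted p = 0.0547), where all 3 trained mice were below the untrained ones. That difference was -0.24 without WT_OL replicate 2 (adjusted p = 0.212) and -0.57 without WT_OL replicate 3 (adjusted p = 0.00461). Without WT_RL replicate 1, which adds only to the estimate of spread here, it was called at -0.40 (adjusted p = 0.0372). Ccnyl1 after RL in WT differed by -0.29 (adjusted p = 0.0724), and was called at -0.39 without WT_Basal replicate 2 (adjusted p = 0.0358) and at -0.39 without WT_RL replicate 3 (adjusted p = 0.0281). Cdk5r1 after OL in KO differed by 0.21 (adjusted p = 0.101), with all 3 trained KO mice above the KO_Basal mice. That difference was called without WT_OL replicate 3 (adjusted p = 0.0433), which adds only to the estimate of spread here.

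Averaging the change over both genotypes puts 6 mice behind each mean, and this comparison was added after the data were seen. Ccny fell by 0.29 with OL (95% interval -0.45 to -0.13, adjusted p = 0.0082) and by 0.25 with RL (95% interval -0.41 to -0.09, adjusted p = 0.0162). Cdk17 fell by 0.25 with OL (95% interval -0.44 to -0.06, adjusted p = 0.0442), and Ccnyl1 fell by 0.24 with RL (95% interval -0.40 to -0.08, adjusted p = 0.0191). These were the only calls, 2 of the 8 genes in each comparison. Of all genes 28.6% were called for OL and 35.4% for RL, so the share among the 8 genes was no higher than over the whole table. The other 6 genes lay between -0.08 and 0.12 for OL and between -0.16 and 0.15 for RL. Both calls of Ccny held whichever mouse was left out. That of Cdk17 held in 5 of 18 such fits, with an adjusted p of up to 0.0958, and was -0.17 without WT_OL replicate 2. That of Ccnyl1 held in 16, and was lost without WT_Basal replicate 3 (adjusted p = 0.0538) or WT_RL replicate 1 (adjusted p = 0.0515).

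Library base composition differed between untrained and trained mice. The mapping rates that the paper lists also differed. They were lower in all Basal libraries and in WT_OL replicates 1 and 2 than in WT_OL replicate 3 and the other trained libraries. The parts of training and of library handling in these shifts were not tested. The difference of a library from the other 17 correlated with gene GC content across genes at -0.490 to -0.305 in the Basal libraries and at -0.023 to 0.352 in the trained ones. The longest transcripts of Ccny, Ccnyl1, Cdk14 and Cdk17 have 43.8% to 45.8% GC, and those of Cdk16, Cdk18, Cdk5 and Cdk5r1 53.2% to 56.4%. After the values of each library were corrected for a trend with GC, the averaged change of Ccny was -0.18 with OL (adjusted p = 0.146) and -0.16 with RL (adjusted p = 0.137), and neither passed. Cdk17 with OL was -0.15 (adjusted p = 0.255). Ccnyl1 with RL remained called at -0.20 (adjusted p = 0.0361), and Cdk14 with RL became called at 0.25 (adjusted p = 0.0126). The genotype difference of Ccny averaged over the states was called with and without this correction.

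**Figure D4:**
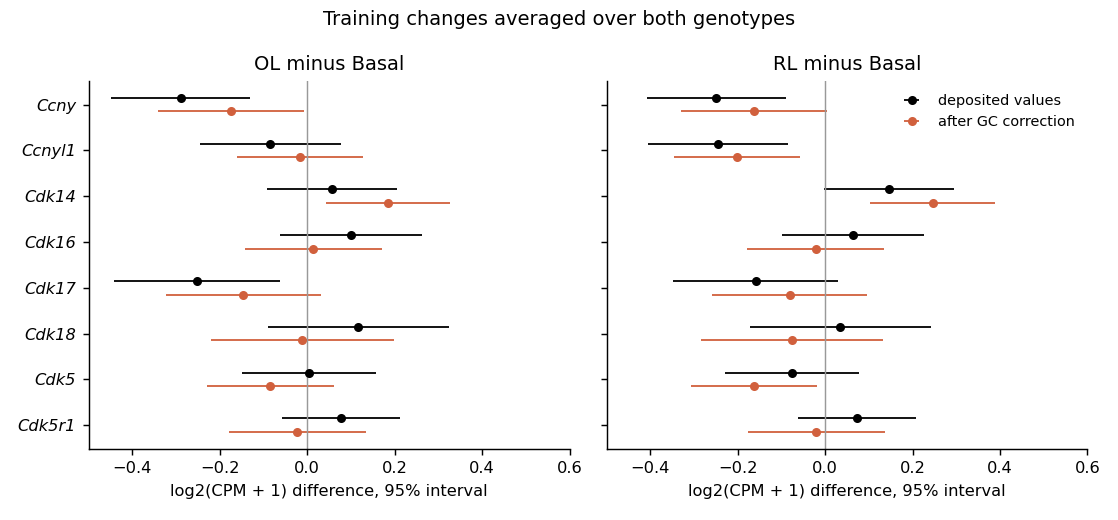
Changes of log2(CPM + 1) with original learning (left) and with original and reversal learning (right), averaged over WT and KO mice, for the 8 genes with 95% intervals. Black points use the deposited values and orange points values corrected for gene GC content. With the correction the values of Ccny move towards 0 and those of Cdk14 away from it.

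Whether genotype altered the response to training was tested directly. For Ccny the KO change minus the WT change was -0.00 for OL minus Basal (95% interval -0.32 to 0.32), 0.09 for RL minus Basal (-0.23 to 0.40) and 0.09 for RL minus OL (-0.23 to 0.41). The largest among the partners were -0.33 for Cdk18 with RL (95% interval -0.75 to 0.08) and 0.31 for Cdk17 with OL (95% interval -0.07 to 0.68). Of the 8 genes 0 were called in any of the 3 comparisons, and of all genes 0%, 0% and 0%, with 1908, 765 and 1224 genes at an unadjusted p under 0.05. For the 8 genes the number at that unadjusted level was 0 in each.

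The rest of the CDK system was read from 6 lists with 78 measured genes. In KO minus WT, limma called 0 of the 78 in Basal, OL, RL and the mean of the states, with 1, 18, 7 and 5 at an unadjusted p under 0.05. The 18 in OL are 23.1% of the lists, against 18.03% of all genes. Of these 18, 8 were among the 16 neuronal substrates of CDK5, whose median difference was 0.36 against 0.00 over all genes. The count of calls in OL moved with 1 library: without WT_OL replicate 3, 19 of the 78 were called. It stayed at 0 without WT_OL replicate 2 and with voom on the recovered reads. The unadjusted count and the median of the substrates are not given for those fits. The share of all genes called in those fits is not given here, so the 19 does not set the lists apart. The substrate Map1b differed by 0.55 (adjusted p = 0.231), and by 0.17 without WT_OL replicate 2. Dpysl2 differed by 0.43 (adjusted p = 0.144), and by 0.31 without it. WT_OL replicate 2 had the lowest sum of neuron markers, 3907 CPM, and the highest of oligodendrocyte markers, 7757 CPM, whose part in these differences was not tested.

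With training the lists moved about as often as all genes. OL minus Basal called 6 of 78 in WT (3 higher, 3 lower, 7.69%) and 20 in KO (11 higher, 9 lower, 25.6%). RL minus Basal called 13 in WT (7 higher, 6 lower, 16.7%) and 21 in KO (14 higher, 7 lower, 26.9%). RL minus OL called 0 in either genotype, with 14 in WT and 6 in KO at an unadjusted p under 0.05. These are 17.9% and 7.69% of the lists, against 16.4% and 4.81% of all genes. None of the 3 genotype differences in these changes called a listed gene, with 12, 2 and 5 at the unadjusted level. That is 15.4%, 2.56% and 6.41% of the lists, against 12.4%, 4.99% and 7.98% of all genes.

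Of 24 other cyclins, 3, 5, 11 and 9 were called for WT OL, WT RL, KO OL and KO RL against Basal, in that order here and below. These are 12.5%, 20.8%, 45.8% and 37.5% of the list, against 9.5%, 15.7%, 23.5% and 23.6% of all genes. Ccnd2 (cyclin D2) was called higher in all 4, from 93.0 ± 3.59 CPM in WT_Basal to 118 ± 14.2 in WT_OL and 112 ± 4.56 in WT_RL, and from 91.2 ± 4.88 in KO_Basal to 152 ± 10.6 in KO_OL and 141 ± 10.53 in KO_RL (SD, n = 3 each). Its changes were 0.34, 0.27, 0.73 and 0.62 (adjusted p = 0.0438 or lower). Both KO calls held whichever mouse was left out. The WT OL call held in 14 of 18 such fits (adjusted p up to 0.0848) and the WT RL call in 4 of 18 (adjusted p up to 0.13). Under another alternative the adjusted p of Ccnd2 in WT OL reached 0.155. Ccnc, the cyclin of the Mediator kinase module, fell in all 4 by 0.53, 0.46, 0.65 and 0.56, from 44.5 ± 0.0957 to 30.6 ± 1.79 and 32.0 ± 0.698 CPM in WT and from 45.0 ± 0.950 to 28.4 ± 2.06 and 30.2 ± 2.40 CPM in KO, and lost each call with the GC correction. Ccne2 (cyclin E2) fell in 3, by 0.70 in WT RL, 0.63 in KO OL and 0.77 in KO RL, and also lost each call with that correction. The list's median changes were -0.03, -0.11, -0.12 and 0.00, against medians between -0.01 and 0.00 over all genes.

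Of 6 measured CDK inhibitors, 1, 2, 1 and 2 were called, which is 16.7%, 33.3%, 16.7% and 33.3%. The shares over all genes were 9.5%, 15.7%, 23.5% and 23.6%, and with 6 genes the list's shares rest on 1 or 2 genes. Cdkn1b (p27) fell in all 4, by 0.42, 0.55, 0.69 and 0.72 on the log2 scale, from 58.9 ± 3.004 to 43.6 ± 2.75 and 40.0 ± 2.15 CPM in WT and from 62.3 ± 0.967 to 38.3 ± 0.990 and 37.6 ± 1.16 CPM in KO. Its call in WT OL was lost with the GC correction (adjusted p = 0.0947). Cdkn1a (p21) rose with RL by 0.996 in WT (SE 0.19, adjusted p = 0.0025) and by 1.07 in KO (SE 0.19, adjusted p = 0.000859), from 6.87 ± 0.464 to 14.9 ± 3.48 CPM and from 8.14 ± 0.700 to 18.3 ± 2.72 CPM. The list's medians were 0.01, -0.12, -0.07 and -0.10.

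Of the 16 neuronal substrates of CDK5, 1, 3, 4 and 5 were called, or 6.25%, 18.8%, 25% and 31.2%, beside the same shares over all genes given for the cyclins. Dpysl2, which encodes the microtubule regulator CRMP2, rose in all 4 by 0.60, 0.88, 1.02 and 0.87. In WT it went from 91.0 ± 2.48 to 139.9 ± 29.4 and 168 ± 12.8 CPM. In KO it went from 92.3 ± 13.5 to 187 ± 7.42 and 168 ± 7.13 CPM. Its WT OL call held whichever mouse was left out, but was lost under another alternative (adjusted p up to 0.094). Map1b, a microtubule-associated protein, rose in KO mice by 0.73 with OL (adjusted p = 0.028) and by 0.87 with RL (adjusted p = 0.0114), from 838 ± 96.1 to 1386 ± 11.8 and 1531 ± 169 CPM. These calls held in 13 and 17 of 18 fits without 1 mouse (adjusted p up to 0.0976 and 0.0513). Its WT values were 898 ± 83.4, 1018 ± 431 and 1406 ± 193 CPM in Basal, OL and RL and did not pass, though RL did without WT_OL replicate 2 (adjusted p = 0.00312) or WT_OL replicate 3 (adjusted p = 0.0208). Both mice are outside that comparison and add only to its estimate of spread. The list's medians were -0.05, 0.15, 0.23 and 0.23.

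Of the 6 CDK5 activators and binding proteins, 1, 1, 0 and 1 were called, all higher, which is 16.7%, 16.7%, 0% and 16.7%. Of the 7 genes of 14-3-3 proteins, which bind cyclin Y, 0, 2, 3 and 2 were called in both directions, which is 0%, 28.6%, 42.9% and 28.6%. Of the 19 other CDKs and CDK-like kinases, 0, 0, 1 and 2 were called, or 0%, 0%, 5.26% and 10.5%, below the 9.5%, 15.7%, 23.5% and 23.6% of all genes. Exons of Ccnc, Ccnd2, Ccne2 and Cdkn1a overlap genes on the other strand, so the caution on strand holds for them too.

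The genes most like Ccny were found by Pearson correlation over the 18 log2 values among 13977 other genes with a mean of at least 1 CPM, as a description with no test. The 5 highest were Edn1 (r = 0.81, Spearman 0.78), Slc16a1 (0.78, 0.76), Clec14a (0.78, 0.81), Apcdd1 (0.75, 0.76) and Tph2 (0.74, 0.81). Edn1 encodes endothelin, Slc16a1 a monocarboxylate transporter, Clec14a an endothelial lectin, Apcdd1 a Wnt inhibitor and Tph2 the neuronal tryptophan hydroxylase. The 3 lowest were Znrf1 (-0.91, Spearman -0.85), an E3 ubiquitin ligase, Tmem151b (-0.86, -0.87) and D17Wsu92e (-0.80, -0.83). Apcdd1 lies on the same chromosome as Ccny but far from it, at chr18:62922231-62961179 against chr18:9312304-9450154.

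These likenesses largely followed the groups. With group means removed r was 0.46 for Edn1, 0.08 for Slc16a1, -0.46 for Clec14a, 0.41 for Apcdd1 and 0.17 for Tph2, and -0.51 for Znrf1, -0.52 for Tmem151b and -0.07 for D17Wsu92e. Znrf1 was at 107 ± 13.0 CPM in WT and 150.1 ± 8.15 CPM in KO (SD, n = 9 each), the reverse order of Ccny. Edn1 was at 1.96 ± 0.476 CPM in WT and 1.32 ± 0.304 CPM in KO. None of the 7 partners was among these 8 genes.

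Of all pairs among the 8 genes, those with the largest absolute correlation within groups are given here, as a description with no test. With group means removed, the correlation over 18 libraries was 0.90 between Cdk17 and Cdk5r1, 0.83 between Ccny and Cdk5r1, 0.78 between Cdk16 and Cdk5 and -0.74 between Cdk17 and Cdk5. On the values as deposited these pairs had 0.57, -0.21, 0.71 and -0.60 (Spearman 0.43, -0.19, 0.28 and -0.12). Without WT_OL replicate 2 the deposited values gave 0.33, -0.18, 0.24 and -0.10. With group means removed, the correlations were not computed without that library. The points share libraries, depth and base composition, and WT_OL replicate 2 was highest for Cdk16 and Cdk5 and lowest for Cdk17, Cdk14 and Cdk5r1.

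Cell type markers moved with several of the genes. The summed 7 oligodendrocyte markers (Mbp, Mog, Mag, Mobp, Cnp, Cldn11 and Ermn) lay at 4409 to 5835 CPM in WT_Basal and 3909 to 4923 CPM in KO_Basal, at 4990.2 to 7757 CPM in WT_OL and 3429 to 4461 CPM in KO_OL, and at 3244 to 5849.5 CPM in WT_RL and 3363 to 5236 CPM in KO_RL. Over the 18 libraries the log2 of this sum correlated with Ccnyl1 at r = 0.64 (Spearman 0.64) and with Cdk5r1 at -0.78 (Spearman -0.69). Without the 2 libraries farthest from the median sum r was 0.63 and -0.66. The sum of 5 neuron markers (Rbfox3, Snap25, Syt1, Map2 and Tubb3), between 3907 and 5914 CPM, correlated with Cdk17 at 0.84 (Spearman 0.75), and at 0.67 without the 2 farthest libraries.

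Among all 88 pairs of gene and marker list, 16 had an absolute r above 0.6, and these are given as descriptions with no test. For Ccny the highest was 0.64 with 5 vascular smooth muscle markers, and with group means removed it was -0.40. Other lists were then farther from 0 for Ccny: -0.69 with choroid plexus, -0.59 with oligodendrocyte and 0.58 with dentate granule markers. Before that removal these were -0.14, 0.37 and 0.07. The part of cell composition in the changes of Ccny, Ccnyl1, Cdk17 and Cdk5r1 was not tested.

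**Figure D5:**
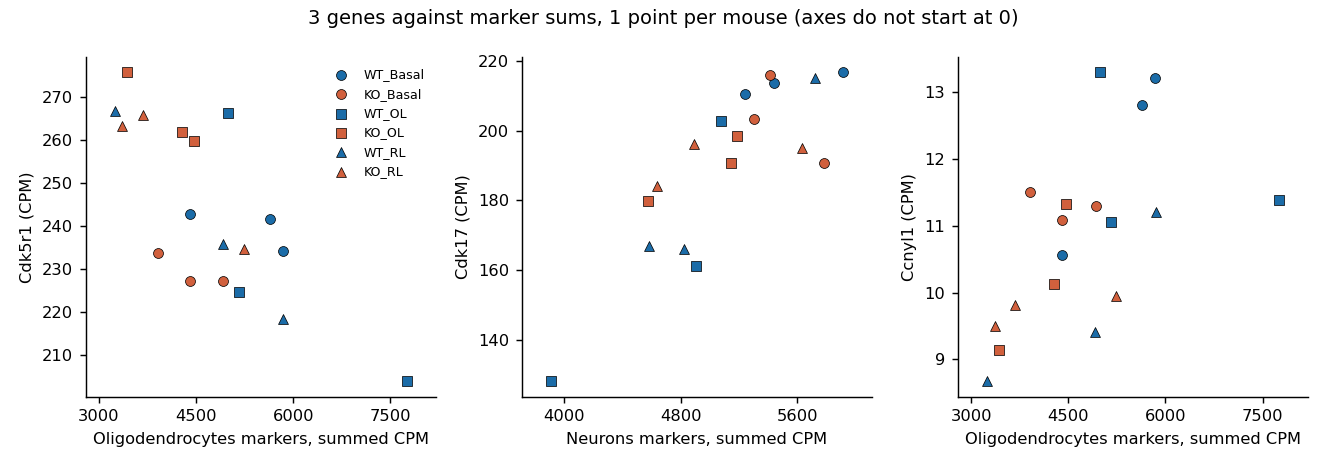
Levels of Cdk5r1, Cdk17 and Ccnyl1 in CPM (vertical axes) against summed CPM of cell type markers (horizontal axes), 1 point per mouse, coloured by genotype and shaped by training state. Axes do not start at 0. Cdk5r1 is lower and Ccnyl1 higher where oligodendrocyte markers are higher, and the lowest value of Cdk17, 128 CPM, is at the lowest neuron sum, 3907 CPM.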

How the data were processed

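Hippocampal RNA of 18 mice was sequenced, 1 library per mouse. Per the methods and notes of the submitters, reads were aligned to mm10 with STAR 2.5.1, counted per gene and TMM-normalized with edgeR 3.12.1 in R 3.3.0. The authors deposited 1 table of log2 values for 15329 genes. By the methods, CPM under 1 were set to 1 before taking logs, whereas the deposited log2 values are log2(CPM + 1): undoing it gave whole multiples of 1 step per library for 100% of values (tolerance 0.05 reads). The tests had been chosen for log2 values and were kept.

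Groups came from the labels. Values were fitted with limma 3.58.1 in R 4.3.3 (1 mean per group over 18 libraries, eBayes with a variance trend, two-sided, Benjamini-Hochberg over 15329 genes, all with reads in at least 3 libraries). Nothing says that mice of a group came from separate litters, so p-values measure the spread between these mice. Summaries were made in Python 3.11.15 with pandas 2.3.3, and exact permutation tests enumerated every split of the mice. Annotation was GENCODE M21 on GRCm38, where 14769 symbols matched directly and 455 by another symbol. Simulated data were used to test the fit. A cell type marker is not reported here and was left out of its sum.

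The 8 genes and the lists were chosen with earlier results of these data known. Named beside the 8 genes were the 5 genes most and the 3 least correlated with Ccny, list genes called between genotypes, and for each training comparison the 3 called list genes with the largest change. Alternatives were pseudocounts of 0.5 and 5, CPM floored at 1, a mean of at least 1 CPM, median-shift scaling, no variance trend, voom, library weights, only the libraries compared, a replicate block, a GC correction, the criteria of the study, likeness with group means removed and leaving out each mouse.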

Additional observations from a re-analysis of the deposited data

How the results depend on the processing

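Differences are on the log2 scale, and counts are of the 8 genes or of the 78 listed genes with an adjusted p under 0.05. The share of all genes called under each alternative is not given here. The counts, those with library weights included, therefore do not set these genes apart from the whole table. The 3 mice per group limit all single-state tests, and single libraries, WT_OL replicates 2 and 3 above all, decided several calls. Some of these calls were in comparisons that do not hold those libraries. The cause was not tested for any change below. The Ccny difference averaged over the states was called under every alternative run. Pseudocounts of 0.5 and 5, the filter on low values, median-shift scaling and voom changed no count of the 8 genes. With a pseudocount of 5, the genotype difference in the OL change of Ccny was 0.0043 instead of -0.00. With CPM floored at 1, or without the variance trend, 1 of the 8 genes in place of 2 was called in the averaged OL change.

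With the GC correction, averaged OL changes turned to -0.011 for Cdk18, -0.085 for Cdk5 and -0.023 for Cdk5r1, and averaged RL changes to -0.022 for Cdk16, -0.076 for Cdk18 and -0.020 for Cdk5r1. Of the 8 genes 0 were then called in the averaged OL change, against 2 without the correction. Listed genes called were 3 in WT OL, 5 in WT RL and 10 in KO OL against Basal.

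Replicate numbers did not pair the mice: over 45 same-numbered pairs the correlation of deviations was -0.635 to 0.547, with 12 over 0.1, and 7 of 18 libraries correlated best with their own number. The replicate block alone changed no count of the 8 genes, with Ccny at an adjusted p of 0.0478 in Basal and 0.0355 in OL. The replicate block with the GC correction gave the same reversed values, -0.011, -0.085, -0.023, -0.022, -0.076 and -0.020. It gave -0.73 for Ccny in Basal (adjusted p = 0.107), 0 genes of the 8 in Basal and in the averaged OL change, and 3, 6 and 12 listed genes in WT OL, WT RL and KO OL.

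With library weights, Ccny in RL was -0.74 (adjusted p = 0.000683), its WT RL minus OL change 0.22, and its genotype differences in change 0.16 for OL and -0.15 for RL minus OL. The state-averaged genotype difference was 0.046 for Cdk16 and 0.019 for Cdk18, and the averaged OL change of Cdk5 -0.0072. Of the 8 genes 4 were called in KO minus WT in OL, 1 in RL, 4 in WT OL, 1 in WT RL, 2 in KO OL, 3 in KO RL and 2 in the genotype difference of the OL change. Of the listed genes 37 were called in KO minus WT in OL, 4 in the state average, 38 in WT OL, 13 in WT RL minus OL, 35 in KO OL, 42 in KO RL and 5 in KO RL minus OL.

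With only the libraries compared, Ccny in OL was -0.75 (adjusted p = 0.0953), and 0 of the 8 genes were called there, 2 in KO OL and 1 in KO RL. Of the listed genes 1 was called in WT OL and 31 in KO OL. By the fold and unadjusted p of the study, 1, 6 and 1 listed genes passed in WT OL, WT RL and WT RL minus OL, and 7, 9 and 1 in KO. With group means removed, the likeness of Clec14a to Ccny was -0.46.

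Leaving out each mouse, Ccny ranged from -0.78 to -0.73 in Basal, -0.83 to -0.63 in OL and -0.78 to -0.55 in RL. Its WT RL minus OL change ranged from -0.12 to 0.12, and its genotype differences in change from -0.080 to 0.12 for OL, -0.035 to 0.20 for RL and -0.034 to 0.20 for RL minus OL. State-averaged genotype differences ranged from -0.042 to 0.014 for Cdk14, -0.066 to 0.015 for Cdk16 and -0.067 to 0.042 for Cdk18. Averaged changes ranged from -0.066 to 0.072 for Cdk5 with OL and -0.043 to 0.12 for Cdk18 with RL. Of the 8 genes, 0 to 1 were called in Basal, 0 to 4 in OL and 0 to 1 in RL between genotypes, 0 to 2 in WT OL, 0 to 1 in WT RL, 0 to 2 in KO OL, 1 to 2 in the averaged OL and 1 to 2 in the averaged RL change. Of the listed genes, 0 to 19 were called in KO minus WT in OL, 4 to 12 in WT OL, 8 to 18 in WT RL, 0 to 13 in WT RL minus OL, 12 to 22 in KO OL and 13 to 25 in KO RL.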
